A study of Mus musculus with 18 samples.

Results

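The genes described here are 10 transcription factors that set or mark developmental timing in the vertebrate retina: Casz1, Pou2f1, Pou2f2, Foxn4, Nr2f1, Nr2f2, Lhx2, Nfia, Nfib and Nfix. They were taken by name. All 10 were found among the 35734 genes of the authors' deposited fibroblast table. Each also had a window among the 21887 protein-coding gene windows set on the mouse genome (the gene and 2 kb on both sides).

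Retinal progenitors make their cell types in an overlapping order, from ganglion, horizontal, cone and amacrine cells early to rods, bipolar cells and Muller glia late. Temporal identity factors are transcription factors present in progenitors for part of that time, and changing them changes which cell types are made. Ikzf1 is the mammalian relative of the fly factor Hunchback, and Casz1 and the Pou2f factors are relatives of the later fly factors Castor and Pdm.

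The series added Ikzf1 and Ikzf4 to 2 kinds of mouse cells and holds 18 samples in 10 groups. Mouse embryonic fibroblasts of the R26-M2rtTA line (C57BL/6) carried lentiviral vectors, switched on by doxycycline, for the neuronal factors Brn2 and Myt1l in every library. One group of 3 RNA-seq libraries held these factors alone, the other group of 3 held Ikzf1 and Ikzf4 as well, and both were taken at 48 h. The labels do not say whether the 3 libraries came from separate cultures, so p-values measure the spread between these libraries.

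The retinal data are 10x multiome chromatin accessibility (ATAC) libraries, 1 for a control with mCherry and 1 for Ikzf1/4. The control was labelled as Muller glia from retina of GLAST-CRE ERT2 ; RosaYFP mice (C57BL/6), in which tamoxifen turns on Cre in cells with an active Glast promoter. The labels of the Ikzf1/4 sample repeat only its title, so its tissue, line and strain are not stated. Both are described with tamoxifen and 14 days, while run names in the file headers carry 48 h and the time of sampling was not settled from them. With 1 library a group no test was possible, so intervals below are exact 95% intervals that cover counting error only.

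The control library held 52119123 unique fragments and 1882 cells, and the Ikzf1/4 library 29358834 fragments and 694 cells. The median cell had 6251 fragments in the control and 10981 in Ikzf1/4, and 3 cell barcodes were found in both. Cells were clustered without the windows of the 10 factors and named from marker lists. Muller glia-like cells were 32.8% of the control and 18.3% of the Ikzf1/4 cells, so most cells of the library labelled Muller glia carried markers of other types. Bipolar-like cells were 34.1% and 34.3%, cone-like cells 13.8% and 20.7%, and rod-like cells 5.10% and 19.9%. The summed level over 10 rod markers was 1735 and 1797 CPM (fragments in the windows scaled to the total fragments of the same cells) in rod-like cells, against 121 to 552 CPM in the other 3 classes of the control. The 10 Muller glia markers summed to 1077 and 1192 CPM in Muller glia-like cells and to 179 to 203 CPM in those other classes of both libraries. Microglia-like (118 cells) and amacrine-like cells (71 cells) were described only in the control, since Ikzf1/4 held 18 and 3. The amacrine-like cluster also had 6 of 10 ganglion cell markers past the fold.

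The 10 windows split by cell class, and each had the same leading class in both libraries. Over the 4 classes with at least 50 cells in each library, Lhx2, Nfia, Nfib and Nfix were highest in Muller glia-like cells. Pou2f2, Foxn4 and Nr2f1 were highest in bipolar-like cells, Casz1 and Pou2f1 in rod-like cells, and Nr2f2 in cone-like cells. Of all 17653 windows with at least 50 fragments, 12.4% were highest in Muller glia-like cells in both libraries, 12.3% in bipolar-like, 24.6% in rod-like and 11.3% in cone-like cells. These are counts of open chromatin over a gene, not of its RNA. The leading class of Nr2f1, Nr2f2 and Pou2f1 was no longer the same in both libraries, or was another class, under at least 1 other setting of the cell minimum, window or scaling.

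**Figure D1:**
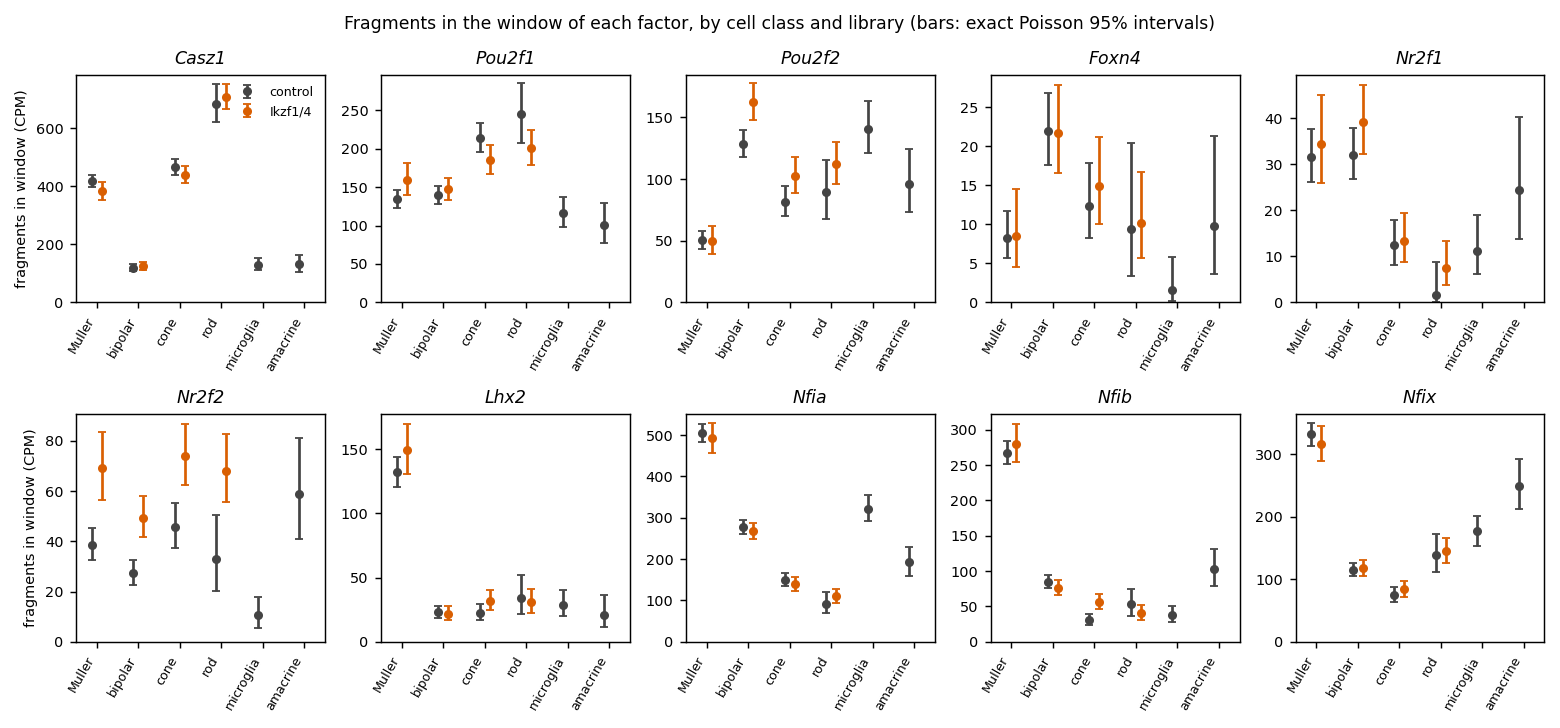
Fragments in the window of each factor (y axis, CPM from 0) by cell class (x axis) in the control (grey) and Ikzf1/4 (orange) library, with exact Poisson 95% intervals. Lhx2 and the 3 NFI genes are highest in Muller glia-like cells, Casz1 is highest in rod-like cells, and Nr2f2 is higher in Ikzf1/4 than in the control in all 4 classes.

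A window was called higher or lower in a class when its CPM was at least 1.5 times, or at most 1/1.5 of, that of the other cells of its library. By this fold 5 of the 10 were higher in Muller glia-like cells in the control, where 9.26% of all windows were, and 5 in Ikzf1/4 (10.4% of all windows). Lhx2, Nfia, Nfib and Nfix were among them in both libraries. The fifth was Casz1 in the control (1.67-fold) and Nr2f1 in Ikzf1/4 (1.54-fold). The other cells were not the same mix in both libraries, as rod-like cells were 5.10% of the control and 19.9% of Ikzf1/4. Casz1 was at 418 and 383 CPM in Muller glia-like cells, beside 250 and 346 CPM in those other cells. Pou2f2 and Foxn4 were lower in Muller glia-like cells of both libraries, against 24.6% and 25.9% of all windows. In bipolar-like cells Pou2f2, Foxn4 and Nr2f1 were higher in both libraries (8.75% and 10.6% of windows). With only cells of at least 10000 fragments, 2 of these calls were lost in Ikzf1/4, as Foxn4 was at 1.06 (0.606 to 1.77) and Nr2f1 at 0.885 (0.538 to 1.39). At that cell minimum no ratio was made for bipolar-like or rod-like cells of the control, so those calls were not checked by it. The control call of Nr2f1 lay at the fold (1.51) and was lost with the gene body only, at 1.33 (0.959 to 1.82), and with scaling to gene windows, at 1.49. Lower there were 4 of the 10 in the control and 3 in Ikzf1/4 (11.4% of windows in each), with Casz1, Lhx2 and Nfib in both.

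Casz1 and Pou2f1 were higher in cone-like cells of the control (16.1% of windows), and none of the 10 was in Ikzf1/4 (11.8%). Casz1 there was at 465 CPM in the control and 438 in Ikzf1/4, beside 264 and 328 in the other cells. Pou2f1 was at 214 and 185 CPM, beside 138 and 153 in the other cells. The part of the mix of other cells in these calls was not tested. Nr2f1, Lhx2, Nfia, Nfib and Nfix were lower in cone-like cells of both libraries (16.9% and 12.1% of windows). In rod-like cells Casz1 was higher in both libraries and Pou2f1 in the control alone, where 20.8% and 19.3% of windows were. Scaled to gene windows, Pou2f1 was at 1.47 in rod-like cells of the control, under the fold. Lower in rod-like cells were 4 of the 10 in the control and 5 in Ikzf1/4 (25.6% and 23.6% of windows), with Nr2f1, Lhx2, Nfia and Nfib in both.

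Casz1, a zinc finger factor of the middle and later stages of retinal development, spans chromosome 4, 148804366 to 148954893 (build mm10, + strand). The RefSeq promoter table for GRCm38.p6 lists 2 starts for it, 84.955 kb apart, and the classes differed most at the later one. The 250 bases before each start are shown because the same cells treated them differently. Capitals mark every match to TGGGAA (the Ikaros core), TAATCC (bound by OTX and CRX homeodomains, the latter a photoreceptor factor) and TTTGCAT (the POU octamer core), on either strand.
Casz1 first start, chr4:148804142-148804391, + strand: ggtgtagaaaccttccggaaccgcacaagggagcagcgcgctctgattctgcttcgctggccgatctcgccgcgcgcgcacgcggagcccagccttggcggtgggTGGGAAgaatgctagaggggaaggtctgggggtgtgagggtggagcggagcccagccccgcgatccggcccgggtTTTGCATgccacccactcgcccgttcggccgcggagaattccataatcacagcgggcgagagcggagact
Casz1 later start, chr4:148889097-148889346, + strand: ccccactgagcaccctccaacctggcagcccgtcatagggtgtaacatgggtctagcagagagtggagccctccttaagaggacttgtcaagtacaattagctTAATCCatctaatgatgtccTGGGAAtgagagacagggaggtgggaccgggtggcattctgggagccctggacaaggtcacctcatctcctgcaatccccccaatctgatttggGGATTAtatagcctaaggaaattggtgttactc

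The stretch before the first start was 66.8% G and C with 27 CpG pairs. The stretch before the later start was 52% G and C with 2, against medians of 52.4% and 6 over the 32851 promoters in the table. TAATCC or its reverse GGATTA stood 147 and 33 bases before the later start. One or more such matches were found in 6.25% of all promoters of this length and 2 or more in 0.295%. The Nr2f2 start also had 2, at 27 and 233 bases before it, and held 0 fragments in rod-like cells of the control and 3 in Ikzf1/4 within 500 bp. Over all cells that start held 3 and 9. TGGGAA or its reverse TTCCCA was found before both starts and in 21.6% of all promoters, and TTTGCAT or its reverse ATGCAAA before the first and in 4.12%. The motifs were chosen with the class values known, and a match is a description of letters only.

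Within 500 bp of the first start, Casz1 gave 29.0 CPM in Muller glia-like cells of the control and 35.2 in Ikzf1/4. Rod-like cells gave 31.3 and 25.6 CPM there, cone-like cells 26.1 and 29.7, and bipolar-like cells 12.5 and 8.74. The later start gave 59.5 CPM in rod-like cells of the control (38 fragments) and 49.3 in Ikzf1/4 (73 fragments). It gave 33.6 and 16.4 CPM in cone-like cells, 0.259 (1 fragment) and 3.91 (6 fragments) in Muller glia-like cells, and 1.20 and 1.05 in bipolar-like cells. Rod-like and cone-like cells had both starts open, while Muller glia-like cells had the first one open and few fragments at the later one. As a ratio of later to first start, rod-like cells were at 1.90 (1.08 to 3.45) in the control and 1.92 (1.28 to 2.92) in Ikzf1/4. Cone-like cells were at 1.29 (0.905 to 1.84) in the control and 0.550 (0.348 to 0.855) in Ikzf1/4, with intervals that did not overlap. Muller glia-like cells were at 0.00893 (0.000224 to 0.0508) and 0.111 (0.0391 to 0.258).

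Set against Muller glia-like cells, the later start was 230.1-fold higher in rod-like cells of the control, with an interval of 38.9 to 9324 that reflects the single fragment below. In Ikzf1/4 it was 12.6-fold higher (5.52 to 35.5). This start was singled out because the classes differed there, so both ratios are descriptions. Starts at least 2 kb apart with enough fragments at both (20 over these classes) were found in Casz1, Lhx2 and Pou2f1 in the control and in Casz1 and Lhx2 in Ikzf1/4. Of these, the rod-like to Muller glia-like ratio differed at least 10-fold between starts in Casz1, in both libraries. It did so in 20.6% of 233 genes in the control and 8.33% of 204 in Ikzf1/4, and nothing is read from the share among so few factors. A start with no rod-like fragments could count as such a difference, and rod-like cells of the control held only 638520 fragments. The part of depth in these shares was not tested.

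**Figure D2:**
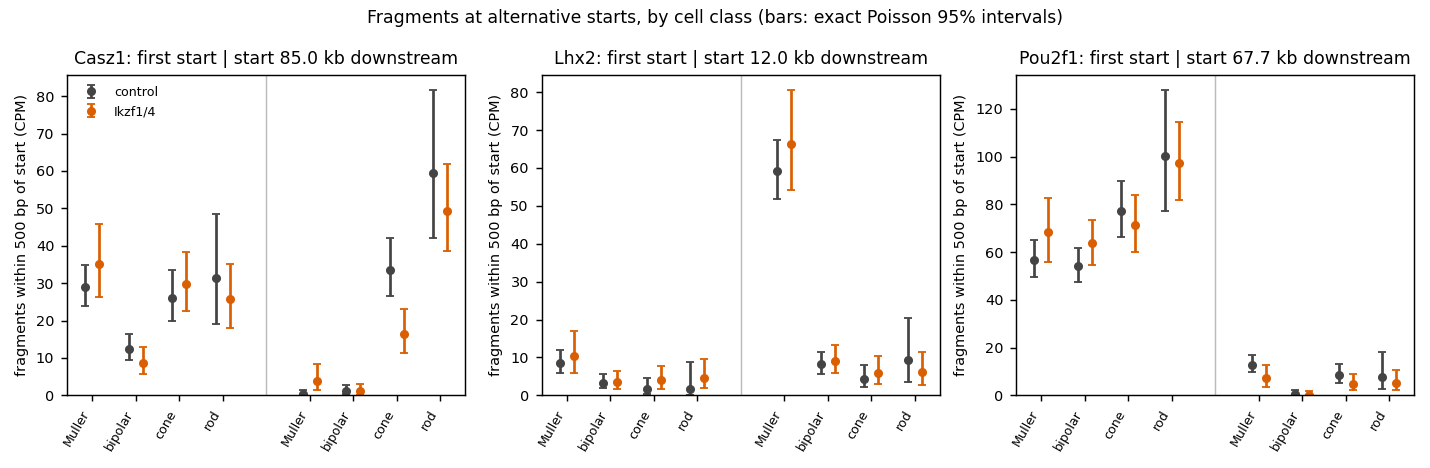
Fragments within 500 bp of the first start (left of the line in each panel) and of a later start (right) of Casz1, Lhx2 and Pou2f1 (y axis, CPM) by cell class, for the control (grey) and Ikzf1/4 (orange), with exact Poisson 95% intervals. The later Casz1 start is at 59.5 and 49.3 CPM in rod-like cells and 0.259 and 3.91 CPM in Muller glia-like cells, and the later Lhx2 start is high in Muller glia-like cells alone among the 4 classes.

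Beyond the starts, other positions in Casz1 also differed by class when fragments were counted in 500 bp bins. A bin 12.2 kb downstream of the first start held 107 fragments (27.7 CPM) in Muller glia-like cells of the control and 37 (24.1 CPM) in Ikzf1/4. The same bin held 1 or 0 fragments in each other class of the control and at most 4 in Ikzf1/4. Bins at 136.7 and 146.7 kb gave Muller glia-like cells 31.6 and 39.8 CPM in the control, against 0.481 to 9.40 and 2.41 to 6.26 CPM in the other 3 classes. A bin at 110.7 kb went the other way, with 56.4 and 33.7 CPM in rod-like cells, 17.2 and 22.8 in cone-like, 8.42 and 10.5 in bipolar-like, and 1.81 and 1.30 in Muller glia-like cells. The bin at 96.7 kb held fragments in Muller glia-like (20.2 CPM), cone-like (27.4) and rod-like cells (40.7) of the control, and fewer in bipolar-like cells (4.81). In Ikzf1/4 the levels were 26.0, 35.2, 50.6 and 6.30 CPM in the same order of classes.

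Over its whole window Casz1 followed the order rod-like, cone-like, Muller glia-like, bipolar-like in both libraries. The levels were 683, 465, 418 and 120.1 CPM in the control and 708, 438, 383 and 125 CPM in Ikzf1/4. The intervals of rod-like and bipolar-like cells did not overlap those of any other of the 4 classes in either library. The intervals of cone-like and Muller glia-like cells overlapped in both libraries (438 to 494 and 398 to 439 CPM in the control). The rod-like level was 5.69 times the bipolar-like level in the control and 5.65 times in Ikzf1/4.

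**Figure D3:**
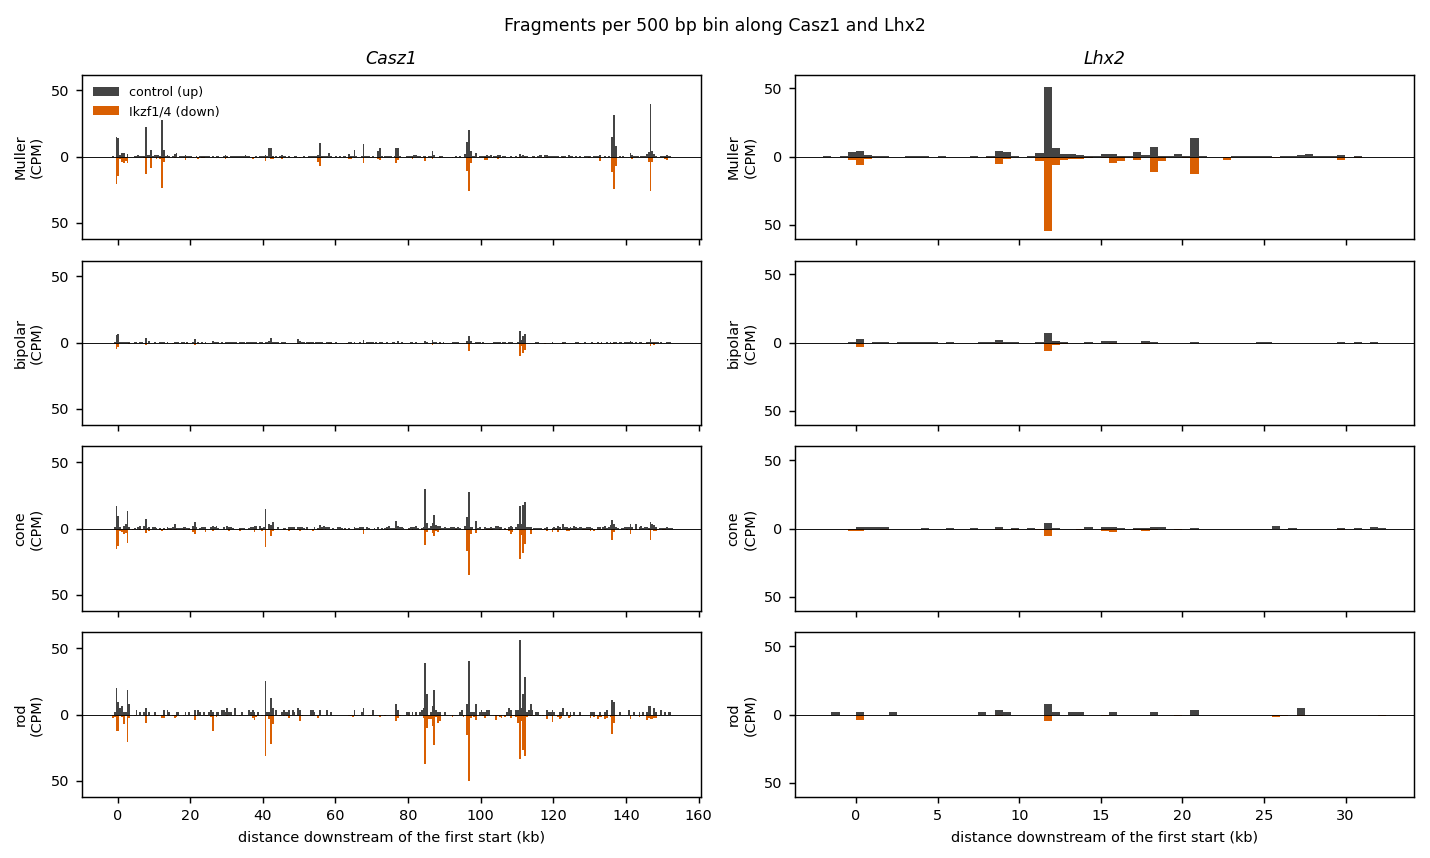
Fragments per 500 bp bin (y axis, CPM, control upwards in grey and Ikzf1/4 downwards in orange) along Casz1 (left) and Lhx2 (right), by distance from the first start in kb (x axis), for 4 cell classes. Casz1 shows bins at 12.2 and 146.7 kb in Muller glia-like cells and at 84.7 and 110.7 kb in rod-like and cone-like cells, and Lhx2 shows 1 main bin at 11.7 kb in Muller glia-like cells.

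Lhx2, a LIM homeodomain factor that keeps progenitors and Muller glia in their state, had the highest ratio of 1 class to all other cells among the 10 (chromosome 2, 38339271 to 38369737, + strand). Muller glia-like cells gave 132 CPM in the control and 149 in Ikzf1/4. The other 3 classes lay between 22.5 and 34.5 CPM in the control and between 21.7 and 31.7 CPM in Ikzf1/4, with overlapping intervals among themselves. Against all other cells the ratio was 4.65 (4.01 to 5.40) and 4.22 (3.53 to 5.05). Between the highest and the lowest class of the control, Nr2f1 (20.4, on 1 rod-like fragment) and Nfib (8.78) differed more than Lhx2 (5.87). The position with the most fragments lay beside a start listed 12.027 kb downstream of the first. The 250 bases before both starts are shown for that reason, with TGGGAA in capitals.
Lhx2 first start, chr2:38339031-38339280, + strand: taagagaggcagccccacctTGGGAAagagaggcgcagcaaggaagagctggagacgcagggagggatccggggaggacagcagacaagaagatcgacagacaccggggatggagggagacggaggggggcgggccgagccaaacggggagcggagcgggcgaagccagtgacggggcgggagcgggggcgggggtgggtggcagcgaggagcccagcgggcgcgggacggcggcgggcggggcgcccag
Lhx2 later start, chr2:38351058-38351307, + strand: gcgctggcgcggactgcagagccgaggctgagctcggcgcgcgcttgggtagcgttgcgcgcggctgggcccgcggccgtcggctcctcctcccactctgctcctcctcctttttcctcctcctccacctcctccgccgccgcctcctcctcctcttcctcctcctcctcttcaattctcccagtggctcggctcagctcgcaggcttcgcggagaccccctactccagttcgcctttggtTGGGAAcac

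Both stretches were rich in CpG pairs, with 25 before the first and 24 before the later start. Within 500 bp of the later start, Muller glia-like cells gave 59.2 CPM in the control and 66.4 in Ikzf1/4. The other 3 classes gave 4.42 to 9.40 CPM there in the control and 5.95 to 9.09 in Ikzf1/4. The first start was low in every class, with 8.54 and 10.4 CPM in Muller glia-like cells. The bin at 11.7 kb alone held 38.6% of the fragments of the window in Muller glia-like cells of the control and 36.7% in Ikzf1/4. At least 50% of the fragments of the window in those cells lay in 3 of 69 bins in both libraries.

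Nfia, Nfib and Nfix encode nuclear factor I proteins, which act in late progenitors and favour bipolar cells and Muller glia over earlier types. Nfia (chromosome 4, 97578066 to 98118876) gave 504 CPM in Muller glia-like cells of the control and 492 in Ikzf1/4. Of the 4 classes, bipolar-like cells followed with 277 and 268 CPM, then cone-like cells with 149 and 139 and rod-like cells with 92.4 and 110.0. No intervals of neighbours among these 4 overlapped in the control. Microglia-like cells of the control gave 322 CPM in Nfia (291 to 355), an interval that overlapped that of bipolar-like cells (262 to 294), and amacrine-like cells 192. Nfib (chromosome 4, 82290173 to 82506751) was at 268 and 281 CPM in Muller glia-like cells and at 84.7 and 76.6 in bipolar-like cells. Cone-like cells gave 30.5 and 56.5 CPM and rod-like cells 53.2 and 40.5, so the order of these classes changed between libraries, with overlapping intervals in both. Amacrine-like cells of the control gave 103 CPM in Nfib (78.9 to 131), which overlapped the bipolar-like interval (76.1 to 94.0). Microglia-like cells gave 37.8 CPM.

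Nfix (chromosome 8, 84704712 to 84801238, - strand; its window overlaps Lyl1) was at 331 and 316 CPM in Muller glia-like cells. Of the 4 classes its second was rod-like, with 139 and 145 CPM, ahead of bipolar-like cells with 115 and 118 and cone-like cells with 74.7 and 83.7. The rod-like and bipolar-like intervals of Nfix overlapped in both libraries (112 to 172 and 104 to 125 CPM in the control). Outside these 4 classes, amacrine-like cells of the control gave 249 CPM in Nfix and microglia-like cells 176. Against all other cells, Muller glia-like ratios were 2.02 for Nfia, 3.51 for Nfib and 2.61 for Nfix in the control, and 2.29, 3.65 and 2.64 in Ikzf1/4. With only cells of at least 10000 fragments they were 1.94, 3.09 and 1.90 in the control and 1.94, 3.24 and 2.63 in Ikzf1/4.

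In the NFI genes, whose windows are longer than that of Lhx2, the fragments also lay in a small share of the bins. At least 50% of the Nfia fragments of Muller glia-like cells lay in 35 of 1090 bins in the control and 40 in Ikzf1/4, for Nfib in 8 and 9 of 442, and for Nfix in 12 and 18 of 202. The leading Nfib bin, with 19.3% of the window in Muller glia-like cells of the control, ran from 82506173 to 82506672, just inside the end of the gene with the higher coordinate (its strand was not in the tables used here). It gave 51.7 CPM in those cells and 3.09 to 12.5 in the other 3 classes. Nfia had 1 listed start, which gave 5.69 CPM in Muller glia-like cells of the control, and starts not listed were not looked up. The leading Nfia bin of Muller glia-like cells of the control lay 190.4 kb from that listed start, and whether it lies at another start was not tested. This bin gave 31.6 CPM there, 31.4 in cone-like and 25.0 in bipolar-like cells, and 9.40 (6 fragments) in rod-like cells. In Ikzf1/4 it gave 22.9 CPM (34 fragments) in rod-like cells, beside 22.8 to 28.0 in the other 3 classes. The next Nfia bin, at 422 kb from the listed start, held 114 fragments (29.5 CPM) in Muller glia-like cells of the control and 0 to 1.92 CPM in the other 3 classes. Per kb of window, Muller glia-like cells of the control gave 3.83 CPM for Lhx2, 3.30 for Nfix, 1.21 for Nfib and 0.926 for Nfia.

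Pou2f1 and Pou2f2 encode POU homeodomain factors. Pou2f1 (chromosome 1, 165865150 to 166002749, - strand; its window overlaps Cd247) differed least between classes in Ikzf1/4, with 200.4 CPM in rod-like, 185 in cone-like, 159.5 in Muller glia-like and 147 in bipolar-like cells. In the control the levels were 244, 214, 134 and 139.5 CPM in the same order of classes. Rod-like and cone-like intervals overlapped in both libraries, as did those of Muller glia-like and bipolar-like cells. Cone-like and Muller glia-like intervals overlapped in Ikzf1/4 as well. At least 50% of the Pou2f1 fragments lay in 2 or 3 of 284 bins in each of the 4 classes, and the leading bin was next to the first start. The stretch before that start is shown beside the one before a start 67.686 kb downstream, where the classes were unlike.
Pou2f1 first start, chr1:166002635-166002884, - strand: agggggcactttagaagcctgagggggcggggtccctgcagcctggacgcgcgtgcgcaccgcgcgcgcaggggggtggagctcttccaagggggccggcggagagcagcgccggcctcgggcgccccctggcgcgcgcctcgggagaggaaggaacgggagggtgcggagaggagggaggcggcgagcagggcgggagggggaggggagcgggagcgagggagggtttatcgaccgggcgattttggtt
Pou2f1 later start, chr1:165934949-165935198, - strand, TTCCCA (the Ikaros core on the other strand) in capitals: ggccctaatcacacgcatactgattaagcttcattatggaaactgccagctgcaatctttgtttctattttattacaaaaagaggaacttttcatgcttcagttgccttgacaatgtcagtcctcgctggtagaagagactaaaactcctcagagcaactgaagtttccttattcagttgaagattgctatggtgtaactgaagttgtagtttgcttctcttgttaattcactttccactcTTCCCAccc

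The first stretch was 74.4% G and C with 29 CpG pairs and the later one 40% with 2. The first start was open in all 4 classes, with 54.4 to 100.2 CPM in the control and 63.7 to 97.2 in Ikzf1/4. At the later start Muller glia-like cells gave 12.9 CPM (50 fragments) in the control and bipolar-like cells 0.722 (3 fragments). In Ikzf1/4 the values were 7.16 CPM (11 fragments) and 0.350 (1 fragment). Cone-like cells, at 8.39 and 4.95 CPM, and rod-like cells, at 7.83 and 5.40, lay between. This order held for fragments within 500 bp of the start. In the bin from 165935150 to 165935649 beside it, Muller glia-like cells of the control gave 8.79 CPM. The other 3 classes gave 1.20 to 17.7 CPM in that bin, so Muller glia-like cells did not lead there.

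Pou2f2 (chromosome 7, 25087350 to 25180797, - strand; its window overlaps Zfp574) was highest of the 4 classes in bipolar-like cells, at 128 CPM in the control and 162 in Ikzf1/4. Rod-like cells gave 89.3 and 112 CPM, cone-like cells 81.7 and 103, and Muller glia-like cells 50.4 and 49.5. Microglia-like cells of the control were at 141 CPM, with an interval (121 to 163) that overlapped that of bipolar-like cells (118 to 139.9). The leading bins of these 2 classes lay at different positions. The leading bin of bipolar-like cells lay 47.1 kb upstream of the only start listed, and within 2 kb of the upstream end of the gene, with 21.9 and 33.9 CPM. The leading bin of microglia-like cells lay 11.9 kb downstream of that start, with 17.7 CPM, where the 4 retinal classes had 0 to 0.442 CPM in the control. The second bin of both classes in the control was the same, 0.64 kb upstream of that start (10.6 CPM in bipolar-like and 15.3 in microglia-like cells). The bin at 47.1 kb also led in rod-like cells of both libraries (15.7 and 26.3 CPM) and in cone-like cells of Ikzf1/4 (20.3 CPM).

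Foxn4, a forkhead factor that gives early progenitors the competence for amacrine and horizontal cells, had the fewest fragments of the 10 (chromosome 5, 114254164 to 114274418, - strand; its window overlaps Acacb). Bipolar-like cells gave 21.9 CPM (91 fragments) in the control and 21.7 (62 fragments) in Ikzf1/4. The other 3 classes gave 8.28 to 12.4 and 8.46 to 14.9 CPM, with intervals that overlapped among themselves, and the cone-like and rod-like intervals also overlapped the bipolar-like one in both libraries. One bin 9.35 kb downstream of the start held 42 fragments in bipolar-like cells of the control, 46.2% of the window, against 1 to 4 fragments in each other class. In Ikzf1/4 it held 15 fragments in bipolar-like cells (5.25 CPM, 24.2% of the window, against 10.1 CPM in the control) and 5 in rod-like cells (3.37 CPM).

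Nr2f1 and Nr2f2 encode the nuclear receptors COUP-TFI and COUP-TFII, which pattern the eye and its dorsal and ventral parts. Nr2f1 (chromosome 13, 78188971 to 78198873, - strand) was at 32.0 CPM in bipolar-like and 31.6 in Muller glia-like cells of the control, and at 39.2 and 34.5 in Ikzf1/4, with overlapping intervals. Photoreceptor-like cells were far lower, with 12.4 and 13.4 CPM in cone-like cells and 1.57 (1 fragment) and 7.42 (11 fragments) in rod-like cells. Nr2f2 (chromosome 7, 70351946 to 70366746, - strand) ranged from 27.2 CPM in bipolar-like to 45.5 in cone-like cells of the control, a ratio of 1.67. The intervals of each pair of neighbours in that order overlapped. Those of bipolar-like (22.4 to 32.7) and cone-like cells (37.1 to 55.2) did not. In Ikzf1/4 these 2 did not overlap either (41.5 to 58.2 and 62.5 to 86.7). Amacrine-like cells of the control gave 58.7 CPM in Nr2f2 (41.1 to 81.2), and microglia-like cells 10.5 (5.57 to 17.9).

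Within the bipolar-like class the clusters numbered 0 and 4 differed in these genes. Cluster 4 had Trpm1, a channel of ON bipolar cells, and Prkca, a marker of rod bipolar cells, among its 10 leading genes, and cluster 0 had Neurod4, a factor of bipolar precursors. Nr2f1 was at 10.1 CPM in cluster 4 and 37.2 in cluster 0 of the control, a ratio of 0.271 (0.114 to 0.550), and at 19.0 and 57.7 in Ikzf1/4 (0.329, 0.204 to 0.516). Nfia gave ratios of 0.604 (0.504 to 0.720) and 0.564 (0.484 to 0.656). By the fold 2 of the 10 were lower in cluster 4 in the control, where 11.8% of windows were, and 5 in Ikzf1/4 (9.18%), with Nr2f1 and Nfia in both. In the Muller glia-like class Nfix was 1.37 (1.22 to 1.54) and 1.30 (1.08 to 1.56) times as high in cluster 3, led by Ccn1, as in cluster 1.

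For each factor the windows with the most similar pattern over the 10 class and library levels were looked up among 11969 windows. Pearson's r of log2 CPM is a description over 10 points that share libraries and depth. Lhx2 was most like Cdc42ep1 (0.986) and Sox2 (0.978), a factor of progenitors and Muller glia. Casz1 was most like Gm40755 (0.979) and Col5a3 (0.971), Pou2f1 like Zranb1 (0.989) and Slc25a35 (0.979), and Pou2f2 like Galnt6 (0.974) and Tor1a (0.963). Foxn4 was most like Rnf144a (0.959) and Glis1 (0.958), and Nr2f1 like Kbtbd11 (0.971) and Snx7 (0.965). Nfia was most like Mnd1 (0.978) and Sipa1l1 (0.970), Nfib like Gpm6a (0.970) and Gm4894 (0.965), and Nfix like Filip1l (0.966) and Cmss1 (0.958). Nr2f2 was most like Ikzf4 (0.953) and Axin2 (0.949). Ikzf4 is a factor that the Ikzf1/4 sample is named for, and both windows share the level of that library. Among the factors themselves, Casz1 and Pou2f1 had an r of 0.811, Lhx2 and Nfib 0.799, and Lhx2 and Pou2f2 -0.851.

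Comparing Ikzf1/4 with control over all cells, Nr2f2 stood apart from the other 9. It gave 56.9 CPM (527 fragments) against 33.9 (465 fragments), a ratio of 1.68 (1.48 to 1.90). It was the 1 factor of 10 past the 1.5-fold rule, which 2.16% of all windows passed upwards, and none was lower by the fold (4.54% of windows). With only cells of at least 10000 fragments, Foxn4 was past the fold too, at 1.56 (1.11 to 2.22). Intervals lay above 1 for Casz1, Pou2f2 and Nr2f2 (29.3% of windows) and below 1 for Nfia, Nfib and Nfix (13.5%). The median ratio was 1.03 over the 10 and 1.05 over all windows. These ratios compare 2 libraries, and a difference between libraries cannot be told apart from one between the factors given.

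Nr2f2 was also higher by the fold within each of the 4 classes. The levels were 38.5 CPM in the control and 69.0 in Ikzf1/4 in Muller glia-like cells (1.79, 1.38 to 2.31), and 27.2 and 49.3 in bipolar-like cells (1.81, 1.41 to 2.34). They were 45.5 and 73.8 CPM in cone-like cells (1.62, 1.25 to 2.11) and 32.9 and 68.1 in rod-like cells (2.07, 1.29 to 3.49). Upwards by the fold were 6.24% of windows in Muller glia-like, 4.13% in bipolar-like, 4.75% in cone-like and 8.54% in rod-like cells. Of 10529 windows with enough fragments in each class, 5 were higher by the fold in all 4, which is 0.0475%, and Nr2f2 was 1 of the 8 factors with enough. The other 4, named after their values were seen, were Tmem267, Glt28d2, Plcxd1 and Gm52481.

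The higher Nr2f2 counts were not at 1 position. All 9 bins with at least 20 fragments over the 4 classes had ratios above 1, though not every interval did. The bin with the most fragments lay 5.05 kb downstream of the only start listed, with 144 fragments in the control and 171 in Ikzf1/4 (ratio 1.64, 1.31 to 2.07). The bin beside it, at 5.55 kb, gave 31 and 58 fragments (2.59, 1.65 to 4.14), and the bin at 15.55 kb gave 21 and 37 (2.44, 1.39 to 4.38). The bin at 7.55 kb, with 27 and 21 fragments, had a ratio of 1.08 (0.578 to 1.98). Within 1 kb of the start alone the Nr2f2 ratio was 2.54, with an interval (0.921 to 7.60) that included 1. Few fragments lay at that start, 3 in the control and 9 in Ikzf1/4 within 500 bp over all cells.

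**Figure D4:**
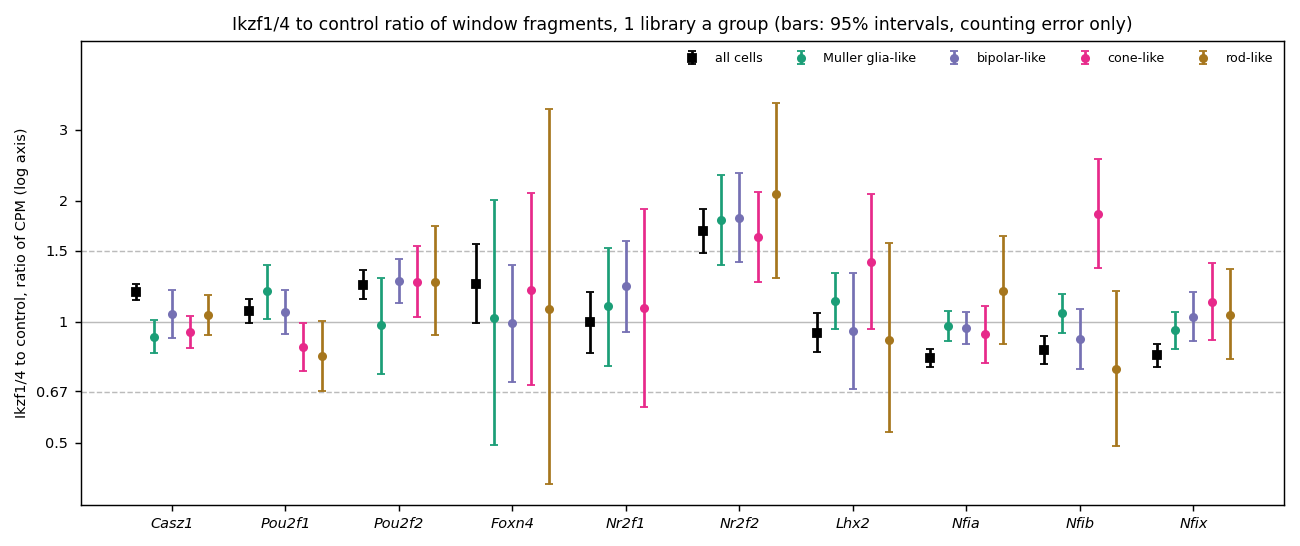
Ratio of window CPM in Ikzf1/4 to control (y axis, log scale) for each factor, over all cells (black squares) and within 4 cell classes (coloured points), with exact 95% intervals for counting error; dashed lines mark 1.5 and 1/1.5, and a point with under 5 control fragments (Nr2f1 in rod-like cells) is left out. Nr2f2 lies above 1.5 over all cells and in each class, and Nfib does so in cone-like cells.

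Casz1 and the NFI genes had all-cell intervals that left out 1, and intervals in their leading class that included it. Casz1 was 1.19 (1.13 to 1.24) over all cells, while rod-like cells, its highest class, were 5.10% of the control and 19.9% of Ikzf1/4. Within classes it was 0.918 in Muller glia-like, 1.04 in bipolar-like, 0.941 in cone-like and 1.04 in rod-like cells, each with an interval that included 1. Nfia was 0.811 (0.772 to 0.853), Nfib 0.850 (0.786 to 0.918) and Nfix 0.824 (0.771 to 0.880) over all cells. In Muller glia-like cells they were 0.976, 1.05 and 0.953, with intervals that included 1. Some class intervals held the all-cell ratio as well, such as Nfib in rod-like (0.760, 0.491 to 1.19) and bipolar-like cells (0.905, 0.761 to 1.07) and Nfia in cone-like cells (0.929, 0.790 to 1.09). With only cells of at least 10000 fragments, Nfib was at 0.930 with an interval (0.830 to 1.04) that included 1. Counting all barcodes in place of cells, Nfia and Nfib were both at 1.06 over the libraries. The levels of the 4 classes in both libraries were also weighted by the fragments of each class in the control. The ratios were then 0.956 for Casz1, 0.971 for Nfia, 1.04 for Nfib and 0.989 for Nfix, and 1.77 for Nr2f2. Microglia-like, amacrine-like and unnamed cells were left out of these ratios but not of the all-cell ratios, so the 2 sets do not cover the same cells. The part of class shares in the all-cell ratios was not tested.

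Pou2f2 was 1.23 (1.14 to 1.34) over all cells, 1.26 (1.11 to 1.43) in bipolar-like cells, 1.25 (1.02 to 1.54) in cone-like and 1.25 (0.923 to 1.73) in rod-like cells, while Muller glia-like cells gave 0.981 (0.742 to 1.28). Cluster 4 was 118 of 642 bipolar-like cells in the control and 118 of 238 in Ikzf1/4, and the 10 bipolar markers summed to 942 and 1711 CPM in the class. The part of this difference in the Pou2f2 ratio was not tested. Nfib in cone-like cells was at 30.5 CPM in the control and 56.5 in Ikzf1/4, a ratio of 1.85 (1.36 to 2.54), and was the other value called past the fold within a class. The 10 cone markers summed to 1180 CPM in cone-like cells of the control and 857 in Ikzf1/4, and the part of that difference in the Nfib ratio was not tested. Pou2f1 was 1.06 (0.993 to 1.14), Foxn4 1.24 (0.991 to 1.56), Lhx2 0.939 (0.838 to 1.05) and Nr2f1 0.995 (0.837 to 1.18) over all cells, all with intervals that included 1. In rod-like cells the Nr2f1 ratio rested on 1 control fragment (4.74, 0.689 to 204).

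In fibroblasts, adding Ikzf1 and Ikzf4 to Brn2 and Myt1l went with higher RNA of Nr2f2, Pou2f1 and Nr2f1. The authors' deposited table gives a mean over the 6 libraries and a log2 fold change per gene. Values per library were not used because none of the sources used here pairs the deposited transcripts with genes. In that deposited table Nr2f2 had a log2 fold change of 0.38 with an SE of 0.06 (adjusted p from DESeq2 = 1.21e-08) at a mean normalised count of 2235. Pou2f1 was at 0.46 (SE 0.10, adjusted p from DESeq2 = 3.84e-05, mean 664) in the authors' deposited table. Nr2f1 was at 0.42 (SE 0.11, adjusted p from DESeq2 = 0.000929, mean 1148) there in the authors' deposited table. As folds of the authors' deposited values these are 1.31, 1.38 and 1.33. In the authors' deposited table, SEs fell towards the lowest counts. They were 0.22 for Casz1 (mean 15.0), 0.15 for Lhx2 (mean 3.42) and 0.07 for Foxn4 (mean 0.685). Fold changes shrunk towards 0 give such SEs, so these folds are read as shrunken values, though the sources used here do not name a method. With Holm adjustment of the p-values in the authors' deposited table, Nr2f2 alone of the 3 stayed called (Pou2f1 p = 0.0978, Nr2f1 p = 1). In bulk RNA, fewer cells of a type and less RNA per cell cannot be told apart.

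Of the 8 factors with an adjusted p in the authors' deposited table, 3 were called higher, where 15.3% of all 16757 genes were, and none was called lower (15.4% of all genes). The median log2 fold change was 0.21 over the 8 and -0.00043 over all genes in the authors' deposited table. For comparison, Ikzf4 and Ikzf1 themselves were at 8.54 and 7.76 on the log2 scale in that deposited table. Vim, Thy1 and Pdgfrb, which fibroblasts express, had means of 101766, 20772 and 2697 in the authors' deposited table. Their log2 fold changes were -0.59, -0.53 and -0.32, all called lower. No list of fibroblast genes was set, and these 3 were picked by name. Other genes with high means were not called in the authors' deposited table: Dkk3 (mean 3945) at -0.01, Nfic (mean 6455) at 0.09 and Glul (mean 1932) at 0.03. Of 10 microglia markers, 1 (C1qa, -0.17, adjusted p from DESeq2 = 0.0370) was called lower and none higher, and Csf1r had a mean of 2580, in the authors' deposited table. The part of these cells in the results was not tested.

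The other factors did not pass the threshold of 0.05. In the authors' deposited table Nfib was at 0.13 (SE 0.06, adjusted p from DESeq2 = 0.0874) and Pou2f2 at 0.29 (SE 0.18, adjusted p from DESeq2 = 0.225). Nfia was at 0.04 (SE 0.11, adjusted p from DESeq2 = 0.836) and Nfix at -0.01 (SE 0.07, adjusted p from DESeq2 = 0.943) in the authors' deposited table. Nfix had the highest mean of the 10 there, 7594, above 96.9% of genes in the authors' deposited table. Casz1, with a mean of 15.0, was at -0.05 with an SE of 0.22 (adjusted p from DESeq2 = 0.909), an interval of -0.47 to 0.38, in the authors' deposited table. Built from the SE of a shrunken value at a low count, this interval does not limit how far Casz1 RNA changed. Lhx2 and Foxn4 had means of 3.42 and 0.685 and no adjusted p in the authors' deposited table, so no call was made.

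**Figure D5:**
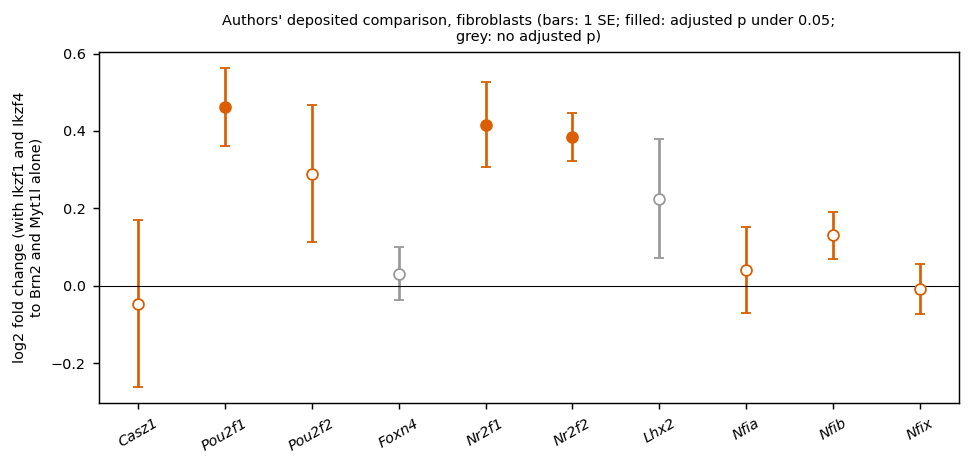
Log2 fold change with 1 standard error (y axis) of the 10 factors in fibroblasts given Ikzf1 and Ikzf4 with Brn2 and Myt1l, against Brn2 and Myt1l alone, from the authors' deposited table (3 libraries a group). Filled points (Pou2f1, Nr2f1, Nr2f2) have a DESeq2 adjusted p under 0.05, grey points (Foxn4, Lhx2) have none.

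Other genes of retinal timing were called in both directions, beside 15.3% of all genes higher and 15.4% lower in the authors' deposited table. Of 12 early progenitor genes, 10 had an adjusted p in the authors' deposited table, 4 were called higher and 1 lower. Onecut2, a factor of horizontal and ganglion cell precursors, was at 1.33 (adjusted p from DESeq2 = 3.04e-37) and Hmga2, a chromatin protein of early progenitors, at -0.54 (2.21e-07) in the authors' deposited table. Foxp1 (0.35) and Lin28b (0.81) were also called higher in the authors' deposited table. Of 12 late progenitor and glial genes, 9 had an adjusted p, and the authors' deposited table calls 3 higher (Id1 at 0.37 and Car2 at 0.69 among them) and 2 lower (Zfp36l2 at -0.36, Id3 at -0.33). Of 11 relatives of the factors, 8 had an adjusted p, 3 were called higher (Isl1 2.21, Lhx4 1.27, Foxn2 0.24) and none lower in the authors' deposited table. With Holm adjustment of the p-values in the authors' deposited table, 1 early gene stayed higher and 1 lower (Onecut2 and Hmga2), 0 late genes stayed called and 2 relatives stayed higher (Isl1 and Lhx4). The list medians were 0.23, 0.12 and 0.08 on the log2 scale in the authors' deposited table, beside -0.00043 for all genes.

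Nr2f2 was the 1 factor higher in both systems by the rules used, with more RNA in fibroblasts and more open windows in all 4 retinal classes. These rules differ, as windows were called by fold and fibroblast RNA by adjusted p alone. At 1.31-fold in the authors' deposited table, Nr2f2 RNA was under the fold used for windows, as were Pou2f1 (1.38) and Nr2f1 (1.33). The share of all genes higher in both systems was not counted. The authors' deposited table calls Pou2f1 and Nr2f1 higher too, and their windows were at 1.06 and 0.995 over all retinal cells. RNA in one system and accessibility in the other are different measures, and no test joined them.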

How the data were processed

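Chromatin accessibility was measured in 2 multiome libraries and RNA in 6 fibroblast libraries. Fragment files were deposited with a count of read pairs per fragment, made with cellranger-arc 2.0.1 on mm10, per the file headers. Salmon gave estimated counts per transcript, per the labels, used here only for totals (35.0 to 44.3 M reads a library). The authors' deposited comparison, made with DESeq2 per the labels, holds a mean normalised signal, log2 fold changes with standard errors, a test score (Wald) and p-values before and after adjustment. The versions of both tools were not given in the sources used. Fibroblast peaks were not used: they reach 197160924 on chromosome 1, past its end in mm10, so the gene windows do not apply to them.

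Barcodes with at least 3000 fragments and an enrichment of at least 4 within 500 bp of gene ends, below the 99th percentile of fragments, were kept as cells. No doublet caller was run. Fragments were counted in gene windows, and cells were clustered (30 components, 20 neighbours, Leiden resolution 0.8) without 14 windows, those of the factors and those overlapping them. To be named, a cluster needed at least 50 cells, a mean log2 fold of 0.8 and 50% of the markers of a list past the fold. Ratios have exact 95% intervals, and windows needed 50 fragments. The intervals were run on simulated Poisson counts, the model they are built for, which checks the code only and holds no spread between cells or libraries. Python 3.11.15, numpy 2.4.6, scipy 1.17.1, pandas 2.3.3, scikit-learn 1.9.0, igraph 0.11.9, leidenalg 0.10.2 and matplotlib 3.10.9 were used. Cells are not replicates.

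The factors and lists were chosen with earlier results of these data known, and the motifs after the class values were seen. Named were the 10 factors, the 2 windows most like each (mean of at least 20 CPM) and up to 4 called genes of each list with the smallest adjusted p. Some genes were named outside this rule, Vim, Thy1 and Pdgfrb among them. Promoters are from RefSeq (GRCm38.p6), which matched 17 starts of 9 factors. The planned test of gene counts was not run, since the sources used here did not pair transcripts with genes.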

Additional observations from a re-analysis of the deposited data

Results flagged for a closer look

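The Pou2f1 window had an Ikzf1/4-to-control ratio of 1.19 (1.02 to 1.39) in Muller glia-like cells and 0.864 (0.753 to 0.991) in cone-like cells. The intervals of these classes lie on opposite sides of 1 under the same comparison. With 1 library a group, the difference between the classes was not tested.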

How the results depend on the processing

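Of the results for single factors, 82 of the class ratios, 49 of the library ratios and 14 of the fibroblast calls kept their direction and size or call, while 12 class and 8 library ratios moved further than their error. Nfia and Nfib turned from below 1 to 1.06 each with all barcodes, where 7 factors had intervals above 1 and 1 below. Within 1 kb of the starts, 0 of 9 factors had an interval below 1 (Nfib, with no listed start, was not run), the intervals of Nr2f2 (0.921 to 7.60) and Pou2f2 (0.872 to 1.38) included 1, and that of Pou2f1 (1.02 to 1.21) lay above it. Nr2f1 in bipolar-like cells of Ikzf1/4 turned to 0.885 with 10000 fragments per cell, where Foxn4 there moved to 1.06 and its library ratio to 1.56. The count highest in cone-like cells became 0 with 10000 fragments per cell and with scaling to gene windows, and that in rod-like cells 1 with the gene body only. In fibroblasts 0 factors were higher with an absolute log2 fold change over 1 as well, and 1 with Holm adjustment. The cause of these changes was not tested. Depth limits Foxn4, Nr2f1 in rod-like cells, single starts and single bins. For genes, no paired analysis was possible because fibroblast results come only from the authors' deposited table and the multiome has 1 library a group. For the same reason edgeR, DESeq2, the replicate block and leaving out each replicate were not run. Transcripts were not paired with genes in the sources used here, and no fit was run on the transcript counts of each fibroblast library.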

Other observations

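After the Nr2f2 values were seen, windows of genes that mark the dorsal and ventral retina were compared between the libraries over all cells. Of 6 dorsal genes, Tbx5, a dorsal T-box factor, was at 1.52 (1.30 to 1.77), while Tbx3 was at 0.819 and Aldh1a1 at 0.810, both with intervals below 1. The dorsal windows summed to 227 CPM in the control and 242 in Ikzf1/4. Of 4 ventral genes, Ephb2 was at 1.08 with an interval above 1 and Vax2 at 0.778 with one below, and the sums were 240.5 and 241.5 CPM. The part of retinal position in the Nr2f2 ratio was not tested.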
